A study of Mus musculus with 8 samples.

Results

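The genes described here are 26 genes of cholesterol synthesis and sterol control, taken by symbol from the RNAseq count tables of mouse colonic and ileal intestinal epithelial cells (IECs). All 26 were found among the 28349 genes of the colon table and the 38649 genes of the ileum table. They were grouped by role into 7 genes of the mevalonate steps, 3 genes of squalene synthesis and ring closure, 8 genes between lanosterol and cholesterol, 6 genes of sterol sensing and SREBP control, and 2 genes of sterol transport and uptake. The 18 genes of the 3 enzyme groups are called synthesis enzymes below. For the comparison of genotypes, 25 of the 26 had enough counts to be tested in the colon, all but Npc1l1, and all 26 in the ileum.

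The 8 libraries came from the colon and the ileum of 4 mice aged 8 weeks, 2 of each genotype. WT IEC mice were Ddx5+/+ and DDX5 ΔIEC mice, called KO below, were Ddx5 fl/fl, and all 4 carried Villin1Cre. DDX5 is an RNA helicase, and Villin1 drives Cre in the epithelium of both the small and the large intestine. The cells were released by EDTA washes rather than sorted, and each library is a single mouse. Total counts ranged from 16883951 to 20393824 in the colon and from 11571061 to 22984283 in the ileum. The 26 genes together took 2213 to 2544 CPM (read counts scaled to a library of 1000000 counts) in the colon libraries and 2906 to 4050 CPM in the ileum libraries. All CPM below use library sizes scaled by TMM. For single genes compared between genotypes or between mice, the scaling was done within each tissue, so such values are not comparable between tissues. For CPM per kb and for summed CPM, it was done over all 8 libraries. In ileum KO replicate 2, 3 repeat-like genes took 19.5% of all counts, against 0.226% in ileum KO replicate 1, about 4% in both WT ileum libraries (4.04% and 3.93%) and at most 0.261% in the colon. All 7 epithelial markers listed, among them Epcam and Vil1, were detected in every library, and 8 of 8 ileal enterocyte markers were higher in WT ileum than in WT colon. Nothing in the labels says more about how the 2 mice of a group differ, so the tests measure the spread between these mice only.

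Cholesterol is built from acetyl-CoA through mevalonate, isoprenoid units, squalene and the first ring sterol, lanosterol. When sterol in the endoplasmic reticulum is low, SCAP escorts the transcription factors SREBP-1 and SREBP-2 (Srebf1, Srebf2) to the Golgi, where they are cleaved and freed to switch on the synthesis enzymes and the LDL receptor. When sterol is high, INSIG proteins hold the complex back. LXRα (Nr1h3) senses oxysterols and turns on sterol export, STARD4 carries cholesterol between membranes, and NPC1L1 takes dietary and biliary cholesterol into the enterocyte at the brush border of the small intestine.

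RefSeq promoter windows of build GRCm38.p6 were available for 22 of the 26 genes, in 31 windows; Fdft1, Fdps, Sqle and Stard4 had none. In the 250 bases upstream of the start, the sterol response element core TCACNCCAC, searched on both strands as were the other motifs, was present in 1 gene, Hmgcs1, and in 1.05% of all 32851 windows. The E-box CACGTG was present in a window of 5 of the 22 genes and in 6.02% of all windows, the NF-Y box CCAAT in a window of 19 of 22 genes and in 33.8% of all windows, and the GC box GGGCGG in a window of 19 of 22 genes and in 32.7% of all windows. By window, CCAAT was found in 64.5% and GGGCGG in 71.0% of the 31. These are matches of letters and not mapped binding sites. 5 upstream stretches are shown, written 5′ to 3′ along the strand of the gene with motif matches on either strand in capitals: Hmgcs1 because it had the highest level and the only TCACNCCAC match, Mvk and Pmvk because they met the study's criterion between genotypes, and Hsd17b7 and Npc1l1 because they were among the 3 with the largest change between ileum and colon in both genotypes. In GENCODE vM21 on GRCm38, these genes span chr13:119690379-119708260 (Hmgcs1), chr5:114444269-114460591 (Mvk), chr3:89454541-89469013 (Pmvk), chr1:169949535-169969241 (Hsd17b7) and chr11:6211013-6230143 (Npc1l1). The stretches lie at chr13:119690101-119690350 (plus strand), chr5:114444019-114444268 (plus), chr3:89454291-89454540 (plus), chr1:169969242-169969408 (minus) and chr11:6230246-6230495 (minus).
Hmgcs1: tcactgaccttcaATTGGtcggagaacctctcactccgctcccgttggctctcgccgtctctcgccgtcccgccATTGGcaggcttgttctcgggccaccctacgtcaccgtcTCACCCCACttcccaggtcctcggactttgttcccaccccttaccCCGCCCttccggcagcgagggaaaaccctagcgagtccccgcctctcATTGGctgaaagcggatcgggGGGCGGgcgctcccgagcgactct
Mvk: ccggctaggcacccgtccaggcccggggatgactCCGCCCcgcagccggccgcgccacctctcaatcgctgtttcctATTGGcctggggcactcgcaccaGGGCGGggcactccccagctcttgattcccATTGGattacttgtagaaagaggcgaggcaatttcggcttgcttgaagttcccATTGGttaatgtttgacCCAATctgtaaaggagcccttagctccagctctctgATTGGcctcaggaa
Pmvk: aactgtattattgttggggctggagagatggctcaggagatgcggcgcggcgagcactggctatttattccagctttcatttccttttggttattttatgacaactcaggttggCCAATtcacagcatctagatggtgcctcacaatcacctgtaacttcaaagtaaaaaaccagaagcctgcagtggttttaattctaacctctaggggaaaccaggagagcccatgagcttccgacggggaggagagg
Hsd17b7: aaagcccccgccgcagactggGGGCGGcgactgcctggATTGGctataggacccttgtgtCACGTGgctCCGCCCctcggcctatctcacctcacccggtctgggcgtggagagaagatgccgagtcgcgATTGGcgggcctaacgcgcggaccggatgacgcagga
Npc1l1: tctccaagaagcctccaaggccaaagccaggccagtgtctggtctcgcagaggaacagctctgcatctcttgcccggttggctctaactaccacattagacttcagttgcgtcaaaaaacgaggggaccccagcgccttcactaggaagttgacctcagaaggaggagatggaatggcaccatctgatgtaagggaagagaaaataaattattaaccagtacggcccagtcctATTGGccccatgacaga
Mvk carried 5 CCAAT matches in its 250 bases, Hmgcs1 carried 3, and Pmvk and Npc1l1 carried 1 each with no GC box. Pmvk has another window farther downstream, starting at chr3:89459321, with none of the motifs searched. The more upstream window is shown. Hsd17b7 is shown for 167 bases. Left out were bases inside the GENCODE gene and bases farther upstream that overlap an exon of a gene on the other strand. The stretch shown carried the CACGTG match and 2 CCAAT matches, and the full 250 bases carried 3 CCAAT matches.

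Levels were compared between genes as CPM per kb of gene length, with TMM-scaled library sizes over all 8 libraries. For all members but Tm7sf2 this length equals the bases in annotated exons of the gene in GENCODE vM21, not the length of 1 transcript. For Tm7sf2 it was 5593 bases against 4403. Of the exon bases of Fdps and Tm7sf2, 26.7% and 12.1% overlap another gene on the same strand. The order of levels thus depends also on the annotation. Hmgcs1, the cytosolic HMG-CoA synthase that feeds the mevalonate pathway, had the highest level of the 26 genes in all 8 libraries. It stood at 98.1 and 97.4 CPM per kb in the 2 WT colon libraries, 90.5 and 77.3 in KO colon, 166 and 165 in WT ileum, and 164 and 134 in KO ileum. In WT colon it was followed by Insig1 (mean of 2 mice 43.5), Cyp51 (38.5) and Stard4 (31.6). In WT ileum the order was Hmgcs1, Npc1l1 (111), Cyp51 (70.1 and 79.97 in the 2 mice) and Stard4 (67.7 and 74.2), and the last pair overlapped between mice. The lowest of the WT colon genes above Npc1l1 were Fdps (4.85), Nr1h3 (3.98) and Tm7sf2 (3.95). Of the 25 neighbouring pairs in the order of levels, 7 overlapped in WT colon and 8 in WT ileum. Within a library, Srebf2 and Srebf1 stood at a per-length ratio of 1.03 to 1.16 in the 4 colon libraries and 2.12 to 2.67 in the 4 ileum libraries, without overlap. The ratio of Hmgcs1 to Mvk was 9.08 and 8.46 in WT colon and 8.23 and 9.11 in KO colon, which overlapped. It was 9.49 and 9.501 in WT ileum and 12.4 and 12.8 in KO ileum, without overlap. Mvk was itself the member that met the study's criterion in the ileum, so this ratio is not a result apart from that call.

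**Figure D1:**
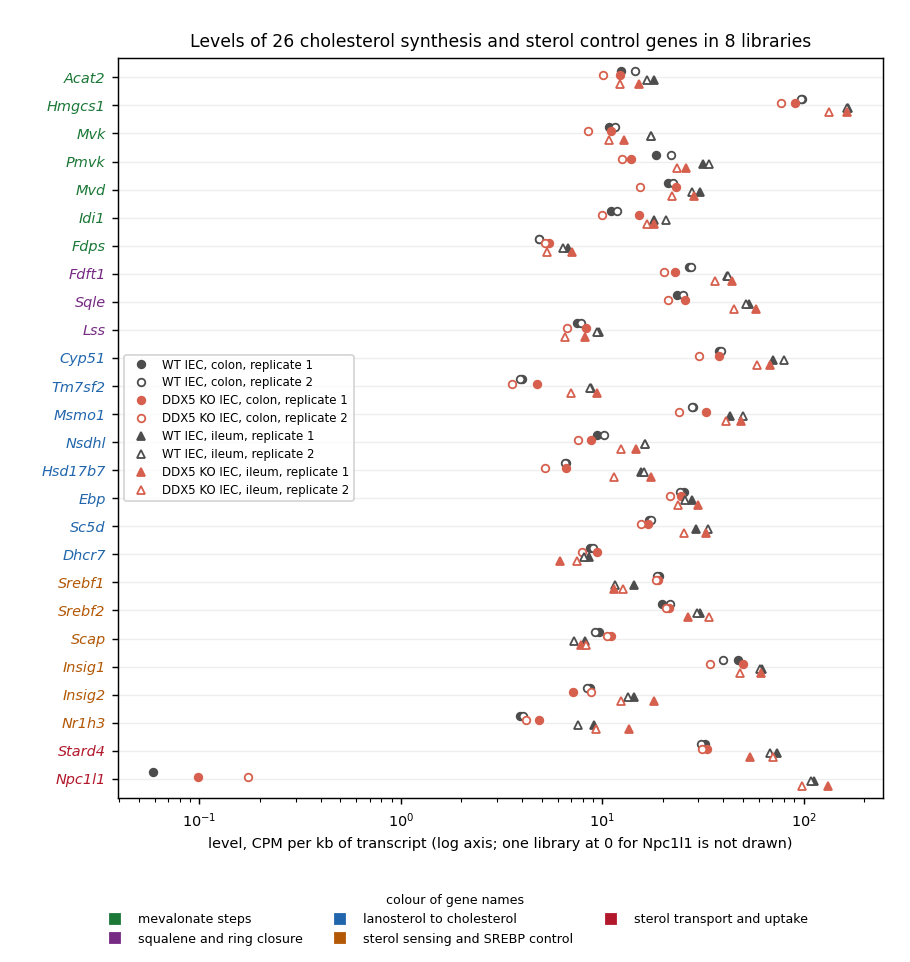
Level of each of the 26 genes in each library, in CPM per kb of gene length (labelled per kb of transcript) on a log axis, with circles for colon, triangles for ileum, grey for WT IEC, red for KO, filled for replicate 1 and open for replicate 2. Hmgcs1 is the gene farthest right in both tissues, and Npc1l1 moves from at most 0.17 in the colon to between 98.0 and 132 in the ileum.

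The largest differences in these genes were between gut segments. In WT IECs, 18 of the 26 were higher in the ileum and 1, Srebf1, was lower at an adjusted p under 0.05 (edgeR's quasi-likelihood test over all 8 libraries, Benjamini-Hochberg over 16178 genes). Fewer members were called in fits that left 1 WT mouse in a group, and the share of all genes called in those fits is not given. Hmgcs1, Mvk, Idi1, Fdps, Msmo1, Srebf1, Srebf2 and Insig2 lost their call whichever colon WT library was left out, with no change of sign. Without colon WT replicate 1 or 2, Hmgcs1 had a log2 fold change of 0.758 or 0.750, where all libraries gave 0.761. Srebf2 had 0.463 or 0.596, where all libraries gave 0.535. With all 8 libraries, 17.4% of all genes tested were called higher and 16.8% lower in WT ileum. The median log2 fold change of ileum over colon was 0.70 for the 26 genes and −0.02 for all genes. Both WT ileum libraries lay above both WT colon libraries for 23 of the 26, all but Dhcr7, Scap and Srebf1, against 35.3% of all genes. Beside this, the summed CPM of 12 crypt and cycling markers was 774 to 835 in WT colon and 1721 to 1739 in WT ileum. Of these, 3 were called (Olfm4, Lgr5 and Smoc2, with Olfm4 at a log2 fold change of 10.37). The sum of 7 epithelial markers was 10554 to 10828 and 14424 to 14929, with Vil1 (1.83) and Krt20 (1.57) called higher. The sum of 12 stroma and endothelium markers was 16.6 to 18.8 and 5.27 to 8.63. Of 7 tested, 4 were called lower, Col1a1, Col1a2, Col3a1 and Dcn, and Lum, Cdh5, Acta2 or Myh11 stood at 0 in some libraries. The sum of 12 leukocyte markers was 25.7 to 32.5 and 62.5 to 76.0, with Cd79a at 0 in 1 WT library of each tissue. Of 8 tested, Ptprc (1.43), Itgax (1.56) and Jchain (2.17) were called higher. The part of these in the result was not tested. In bulk RNA, fewer cells of a type and less RNA per cell cannot be told apart.

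Npc1l1, the sterol uptake transporter and target of ezetimibe, separated the segments most. It had 5 and 0 counts in the WT colon libraries and 10891 and 7012 in the WT ileum libraries, and 8 and 17 in KO colon against 6281 and 4088 in KO ileum. No colon library came near any ileum library. The log2 fold change in WT was 11.92 (SE 0.50, adjusted p = 2.8e-06) and in KO 9.67 (SE 0.43, adjusted p = 3.3e-06), both by edgeR. The WT value rests on few colon counts, being 16.03 without colon WT replicate 1 and 10.83 without colon WT replicate 2, where the first of these leaves a colon library of 0 counts and is no bound. Summed over the 2 mice and scaled by library size, the ratio of ileum to colon was 4144 in WT (95% exact interval 1775 to 12763) and 830 in KO (562 to 1284), where the intervals cover counting error only. Stard4, the other transport gene, stood at 32.4 and 30.9 CPM per kb in WT colon and 74.2 and 67.7 in WT ileum. Its KO values were 33.2 and 31.2 in colon and 54.4 and 70.2 in ileum, with no overlap between segments. The log2 fold change was 1.17 in WT (SE 0.14, adjusted p = 4.7e-04) and 0.95 in KO (adjusted p = 0.00136).

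Of the 7 genes of the mevalonate steps, 5 were called higher in WT ileum, and their log2 fold changes ran from 0.37 to 0.76 over all 7. The called genes were Idi1 (0.76), the isomerase of isopentenyl diphosphate, Hmgcs1 (0.76), Pmvk (0.70), Mvk (0.64) and Fdps (0.44), the farnesyl diphosphate synthase. Mvk and Pmvk are the kinases that phosphorylate mevalonate in turn. Acat2, which condenses acetyl-CoA, had 0.37 with an adjusted p of 0.102, and Mvd, the decarboxylase that follows Pmvk, had 0.42 with 0.132. With the mouse as replicate block, since the colon and ileum library of a number came from the same mouse, these were called too (Acat2 adjusted p = 0.0488, Mvd 0.0229). The Acat2 count is uncertain, because 39.1% of its 50-base words occur also in Acat3, and Fdps and Idi1 share 26.2% and 25.3% of theirs with other genes.

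Of the squalene and ring closure group, Sqle, the squalene epoxidase that is a rate-limiting enzyme of the later pathway, rose by a log2 of 1.11 and Fdft1, the squalene synthase, by 0.62. Sqle stood at 23.5 and 25.1 CPM per kb in WT colon and at 53.5 and 51.6 in WT ileum. Lss, the lanosterol synthase, had 0.32 with an adjusted p of 0.126, or 0.0324 with the mouse as replicate block. Fdft1 shares 26.5% of its 50-base words with other genes, most with Ctsb, whose exons overlap on the opposite strand.

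Between lanosterol and cholesterol, 6 of 8 genes rose in WT ileum and the other two, Ebp and Dhcr7, had 0.11 and −0.09. Hsd17b7, a 3-keto-sterol reductase of the demethylation complex, changed most. Its levels were 6.63 and 6.56 CPM per kb in WT colon and 15.6 and 16.2 in WT ileum, and 6.62 and 5.20 in KO colon and 17.4 and 11.5 in KO ileum. The log2 fold change was 1.27 in WT (SE 0.20, adjusted p = 0.00147) and 1.29 in KO (SE 0.20, adjusted p = 0.00143). Tm7sf2 (1.15), Cyp51 (0.96), Sc5d (0.85), Nsdhl (0.73) and Msmo1 (0.73) followed. Cyp51 removes the first methyl group of lanosterol, Tm7sf2 reduces the sterol C14 double bond, Msmo1 and Nsdhl act in the removal of the C4 methyl groups, and Sc5d introduces the last ring double bond. Dhcr7, which makes cholesterol from 7-dehydrocholesterol, stood at 8.74 and 9.00 CPM per kb in WT colon against 8.61 and 8.10 in WT ileum, just below.

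The control genes did not all go the same way. Srebf1 fell in WT ileum by 0.54 on the log2 scale, from 19.1 and 18.6 CPM per kb in colon to 14.4 and 11.5, while Srebf2 rose by 0.53, from 19.8 and 21.7 to 30.5 and 29.6. Nr1h3 rose by 1.07 and Insig2 by 0.71. Insig1, itself a target of SREBP, had 0.50 with an adjusted p of 0.0763, or 0.0102 with the mouse as replicate block. Scap had −0.29 with an adjusted p of 0.0683.

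In KO IECs the same comparison called 15 of the 26 higher in the ileum and 2 lower, Srebf1 (−0.63) and Scap (−0.42, adjusted p = 0.0699 with only the 4 KO libraries fitted), where 18% of all genes were called higher and 17.3% lower. The median log2 fold change was again 0.70, against −0.04 for all genes, and no library is shared with the WT comparison. Both KO ileum libraries lay above both KO colon libraries for 16 of the 26, against 31.4% of all genes. Nr1h3 (chr2:91184061-91202834) had the largest change after Npc1l1, with 4.85 and 4.19 CPM per kb in KO colon and 13.6 and 9.32 in KO ileum, and 3.91 and 4.06 in WT colon and 9.08 and 7.56 in WT ileum. Its log2 fold change was 1.34 in KO (SE 0.20, adjusted p = 0.0011). The 9 members not called in KO were Acat2, Mvk, Mvd, Idi1, Fdps, Lss, Ebp, Dhcr7 and Insig1, with log2 fold changes from −0.34 (Dhcr7) to 0.46 (Idi1). With the mouse as replicate block Idi1, Mvd and Insig1 were called as well (adjusted p = 0.0280, 0.0290 and 0.0260), which gave 20 of 26 in KO and 23 of 26 in WT, where this fit called 37.8% and 37.7% of all genes.

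**Figure D2:**
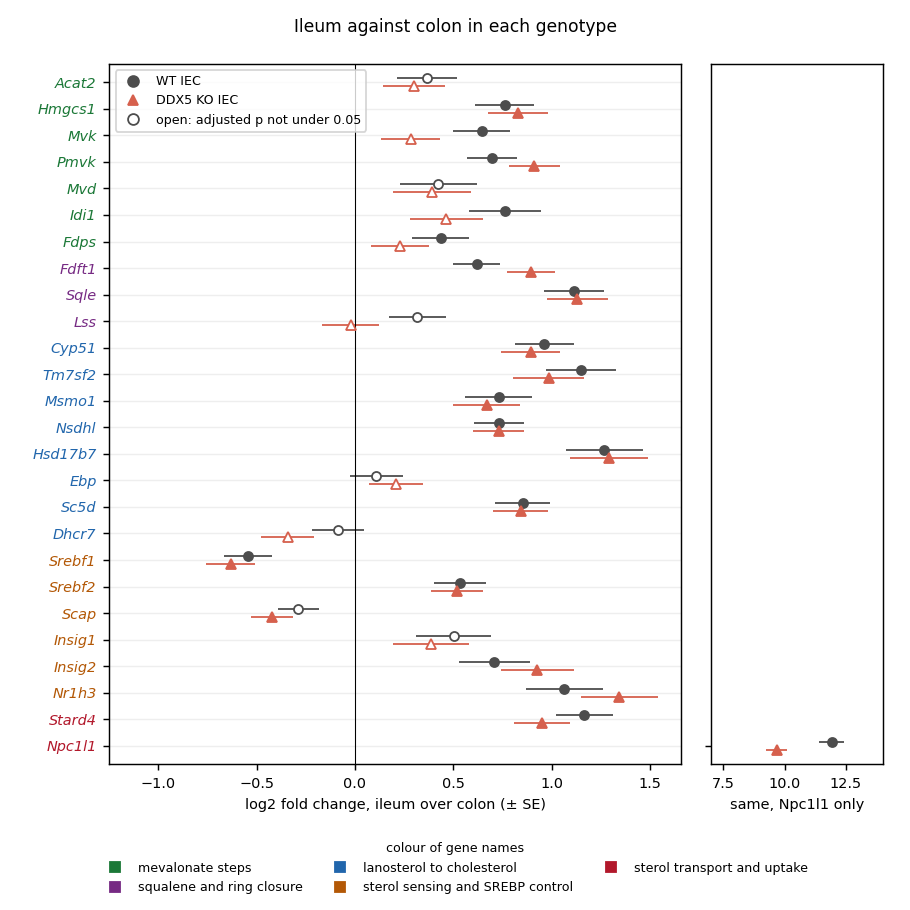
Log2 fold change of ileum over colon with its SE for each gene, in WT IEC (grey circles) and KO (red triangles), filled where the adjusted p was under 0.05, with Npc1l1 on an axis of its own. Most genes lie to the right of 0 in both genotypes, and Srebf1 lies to the left in both.

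Other genes of the pathway, taken from 4 lists by function, were counted in the same fits. Among the genes of the other sterol and isoprenoid branches, Lbr, a nuclear envelope protein with sterol C14 reductase activity, was called higher in WT ileum (log2 fold change 0.46), and Coq2 of ubiquinone synthesis was called lower (−0.55). Both were called in KO as well, in the same directions (0.47 and −0.57). Of 7 genes of SREBP cleavage and sterol-regulated degradation, 1 was higher, Syvn1 (0.55 in WT, 1.19 in KO), a ubiquitin ligase of the endoplasmic reticulum. Of 12 tested genes of the fatty acid arm of SREBP, 3 were higher and 5 lower in WT ileum, with a median of −0.40, and 3 higher and 7 lower in KO, with a median of −0.62. Among them Scd1, the stearoyl-CoA desaturase, fell by 3.24 on the log2 scale and Acly, which supplies cytosolic acetyl-CoA, by 1.13, while Me1, the malic enzyme that makes NADPH, rose by 4.10. Of 15 genes of sterol export, esterification and lysosomal transport, 5 were higher and 5 lower in WT ileum. Soat2 (6.69), which esterifies absorbed cholesterol, and Abcg8 (5.11) and Abcg5 (4.05), the partners of the apical sterol exporter, were higher, and Scarb1 (−3.75), the HDL receptor, was lower.

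The comparison of genotypes asked which genes depend on DDX5 in each segment. Ddx5 itself stood at 852 and 785 CPM in the WT colon libraries against 404 and 390 in KO colon, and at 633 and 635 in WT ileum against 308 and 296 in KO ileum. These CPM were scaled within each tissue. Scaled over all 8 libraries, the WT libraries had 771 and 706 CPM in the colon and 700 and 700 in the ileum. The log2 fold change of Ddx5 between genotypes was −1.04 in the colon (SE 0.09, adjusted p = 0.0866) and −1.07 in the ileum (SE 0.18, adjusted p = 0.0270) by edgeR with the replicate number as block. Ddx5 reads thus remained in every KO library, where 14.6% of the 50-base words of Ddx5 occur also in other genes. The study reported efficient loss of Ddx5 RNA by qRT-PCR and of DDX5 protein by Western blot in KO IECs. Genes were called by the study's criterion, met by a protein-coding gene whose unadjusted p was under 0.05 and whose log2 fold change was 0.5 or more, up or down. With 2 mice against 2, an exact permutation test of a single gene cannot go below p = 0.333, so the p-values rest on the spread shared over all genes.

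In the colon, 1 of the 25 tested genes met the criterion, Pmvk, where 6.64% of all protein-coding genes tested did. At an adjusted p under 0.05, 0 of the 25 were called, as were 0% of all 15362 genes tested. An unadjusted p under 0.05 was found for 2 of the 25, and the share of all genes at that unadjusted level is not given. DESeq2 with the block also called 1 of the 26 by the criterion. Pmvk had 603 and 855 counts in the WT libraries and 430 and 472 in the KO libraries, or 35.0 and 41.8 CPM against 26.1 and 23.7, and the groups did not overlap. Its log2 fold change was −0.62 (SE 0.13, adjusted p = 0.272). Without WT replicate 2 it was −0.49, below the required size, in a fit over both tissues without the block. Fdft1, with 126 and 130 CPM in WT and 107 and 94.5 in KO, had −0.35 (SE 0.09, adjusted p = 0.321) and no overlap, but did not reach the required size. The median over the 25 genes was −0.08, against −0.0004 for all genes, and 18 of the 25 values were negative.

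Both KO colon libraries lay below both WT colon libraries for 9 of the 25 genes, all synthesis enzymes, where 22% of all genes did, and above for 3 (Fdps, Scap and Nr1h3), where 22.5% of all genes did. The 9 were Acat2, Hmgcs1, Pmvk, Fdft1, Cyp51, Nsdhl, Hsd17b7, Ebp and Sc5d. Several of these separations were narrow. Cyp51 stood at 186 and 191 CPM in WT against 185 and 146 in KO, and Hsd17b7 at 37.4 and 37.2 against 37.2 and 29.2. The control genes were close between genotypes, with log2 fold changes from −0.11 (Insig2) to 0.19 (Scap). Stard4 had 0.02 with a 95% interval of −0.19 to 0.22. Npc1l1, with 5 and 0 counts in WT colon and 8 and 17 in KO colon, was too low for the fit within the colon. Scaled by library size, its KO to WT ratio was 5.21 (95% exact interval 1.96 to 17.4, counting error only). Of 5 ileal enterocyte markers tested in the colon, 3 were higher and 2 lower in KO, with a median log2 fold change of 0.14. They ranged from −2.05 to 1.09, and only Fabp6 (1.09) met the criterion. The summed CPM of the 8 ileal enterocyte markers ranged from 86.6 to 156 in WT colon and from 25.7 to 166 in KO colon. The part of these markers in the Npc1l1 counts was not tested. Beside the colon values as a whole, 3 of 7 colonocyte markers met the criterion as higher in KO (Aqp8, Slc26a3 and Car4, with 0.79, 0.70 and 0.63), 2 of 6 tested leukocyte markers as lower (Ptprc and Cd8a), and the leukocyte sum was 7.78 to 16.2 CPM in KO colon against 25.7 to 32.5 in WT colon. Their part in the results was not tested.

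In the ileum, 1 of the 26 genes met the criterion, Mvk, where 6.61% of all protein-coding genes tested did. At an adjusted p under 0.05, 0 of the 26 were called, where 0.697% of all 14068 genes were. An unadjusted p under 0.05 was found for 5 of the 26, and the share of all genes at that unadjusted level is not given. DESeq2 with the block called 1 by the criterion. Mvk had 1015 and 670 counts in WT and 367 and 270 in KO, or 42.4 and 42.2 CPM against 31.2 and 26.2, and the groups did not overlap. Its log2 fold change was −0.56 (SE 0.14, adjusted p = 0.129). Without KO replicate 2 it was −0.42, below the required size, in a fit over both tissues without the block. In the colon the same gene stood at 31.9 and 34.2 CPM in WT and 32.4 and 24.96 in KO, which overlapped. Pmvk, the next kinase, had 49.2 and 52.6 CPM in WT ileum and 40.6 and 36.5 in KO ileum, again with no overlap, and a log2 fold change of −0.40 (SE 0.14, adjusted p = 0.280).

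Lss (−0.39, adjusted p = 0.303) and Acat2 (−0.34, adjusted p = 0.353) were lower in KO ileum at the unadjusted level, short of the required size. Nr1h3 was the member with the largest positive value, at 20.7 and 17.2 CPM in WT and 30.9 and 21.3 in KO, a log2 fold change of 0.45 (SE 0.16, adjusted p = 0.273). The median over the 26 genes was −0.13, against −0.005 for all genes, and 21 of the 26 values were negative. Both KO ileum libraries lay below both WT ileum libraries for 9 genes, again all synthesis enzymes, where 20.5% of all genes did, and above for 1, Nr1h3, where 19% did. The 9 were Acat2, Hmgcs1, Mvk, Pmvk, Idi1, Lss, Cyp51, Nsdhl and Dhcr7. Npc1l1 had a log2 fold change of 0.04 in the ileum with a 95% interval of −0.36 to 0.44. Of the marker lists, 1 of 8 tested ileal enterocyte genes (Alpi, 0.56) and 1 of 7 leukocyte genes (Lyz2, 2.18) met the criterion as higher in KO ileum. As lower, 1 of 5 colonocyte genes (Car1, −2.16) met it. The summed CPM of the leukocyte markers was 56.7 to 60.3 in KO ileum against 62.5 to 76.0 in WT ileum. The part of these markers was not tested either.

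Of the pathway lists, none of the 11 genes of the other sterol and isoprenoid branches met the criterion in either tissue. In the colon, Me1 (log2 fold change −1.24) and Fads1 (−1.19), a fatty acid desaturase, were lower in KO among 12 genes of the fatty acid arm. Abcg1 (−1.16), a sterol exporter, was lower, and Abcg5 (1.02) and Abcg8 (0.88) were higher among 15 genes of export and esterification, with adjusted p from 0.222 to 0.378 for these 5. In the ileum, Syvn1 was higher (0.77, adjusted p = 0.0359), and Soat2 (−0.59, adjusted p = 0.156) and Abcg8 (−0.55, adjusted p = 0.112) were lower in KO. Abcg8 thus had opposite signs in the 2 segments, neither at an adjusted p under 0.05. In the edgeR test of the difference between segments, given below, 0 of the 15 genes of its list reached an adjusted p under 0.05, where 0.0124% of all genes did.

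The 2 KO mice differed from each other in the synthesis enzymes. In the colon all 18 enzymes were lower in KO replicate 2 than in KO replicate 1, with a median log2 ratio of −0.28 and a range from −0.61 (Idi1) to −0.07 (Fdps). In the ileum 17 of the 18 were lower, all but Dhcr7, with a median of −0.30 and a range from −0.61 (Hsd17b7) to 0.29 (Dhcr7). The same 17 were lower in both tissues, or 94.4%, against 29.4% of the 13567 genes tested in both. Between the WT mice the colon median was 0.05 and the ileum median −0.005, and 3 of the 18 were lower in replicate 2 in both tissues. The summed CPM of the 18 enzymes was 1584 and 1619 in the WT colon libraries, whereas KO colon replicate 1 had 1598 and KO colon replicate 2 had 1307. In the ileum the WT libraries had 2644 and 2731, KO replicate 1 had 2667 and KO replicate 2 had 2178. KO replicate 1 thus lay within the WT range in both tissues, and KO replicate 2 below it.

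The study describes the mice as 2 pairs of cohoused littermates, each of a KO and a WT mouse, but its text and the labels do not say which numbers form a pair. Taken within a replicate number, the ratio of KO to WT had for replicate 1 a median over the enzymes of 0.01 (colon) and −0.007 (ileum), and for replicate 2 of −0.30 and −0.33. For replicate 1, KO was the lower library for 9 of 18 enzymes in colon and 10 of 18 in ileum, and for replicate 2 for 17 and 18 of 18. Pmvk was lower in KO in both replicate numbers and both tissues (colon −0.42 and −0.82, ileum −0.28 and −0.53). Mvk was so in the ileum (−0.44 and −0.68) but not in the colon (0.02 and −0.46). Between the KO mice, the 6 control genes were mixed. In KO replicate 2, 5 of them were lower than in KO replicate 1 in colon and 3 in ileum. The median log2 ratios of KO replicate 2 over KO replicate 1 were −0.06 (colon) and −0.13 (ileum). By this ratio Insig1 (−0.54 and −0.35) and Nr1h3 (−0.21 and −0.54) were lower in KO replicate 2 in both tissues. Srebf2 had −0.06 and 0.33, and Srebf1 −0.04 and 0.15. Taken against WT of the same number, Nr1h3 was higher in KO in each case (colon 0.31 and 0.03, ileum 0.58 and 0.30). No test of 1 mouse against another was possible.

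**Figure D3:**
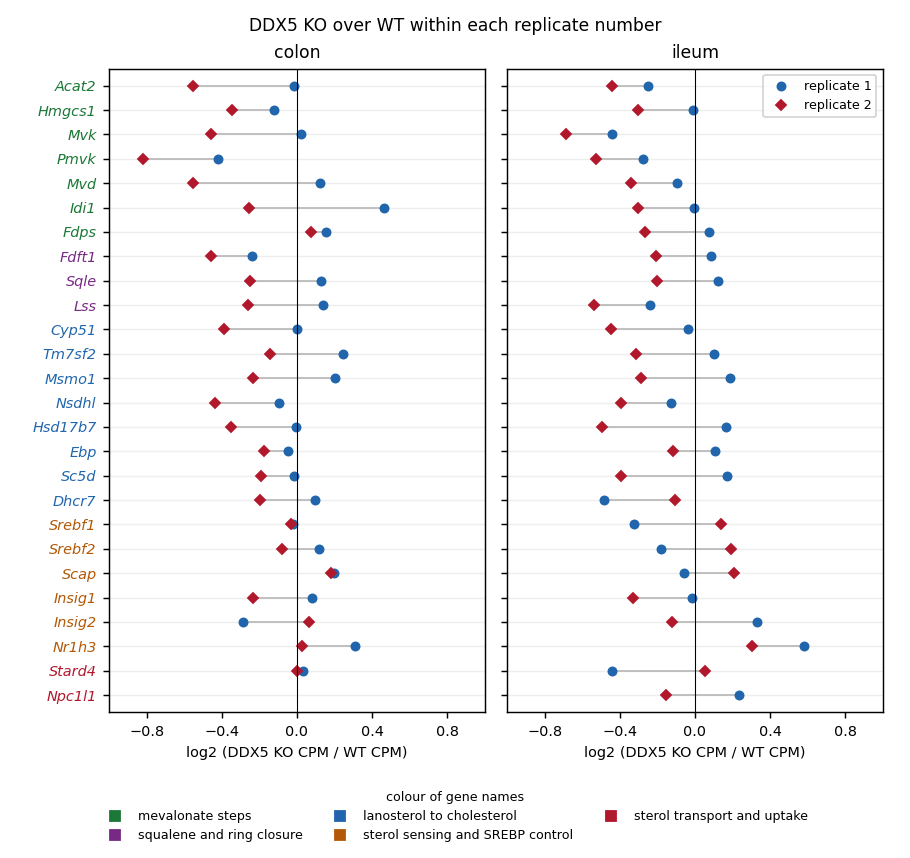
Log2 ratio of KO to WT CPM within each replicate number, for each gene in the colon (left) and the ileum (right), with circles for replicate 1 and diamonds for replicate 2. The diamonds of the synthesis enzymes lie left of 0 in 17 of 18 cases for colon and 18 of 18 for ileum. Their circles lie on both sides of 0, from −0.42 (Pmvk) to 0.46 (Idi1) for colon. For ileum they run from −0.48 (Dhcr7) to 0.19 (Msmo1).

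**Figure D4:**
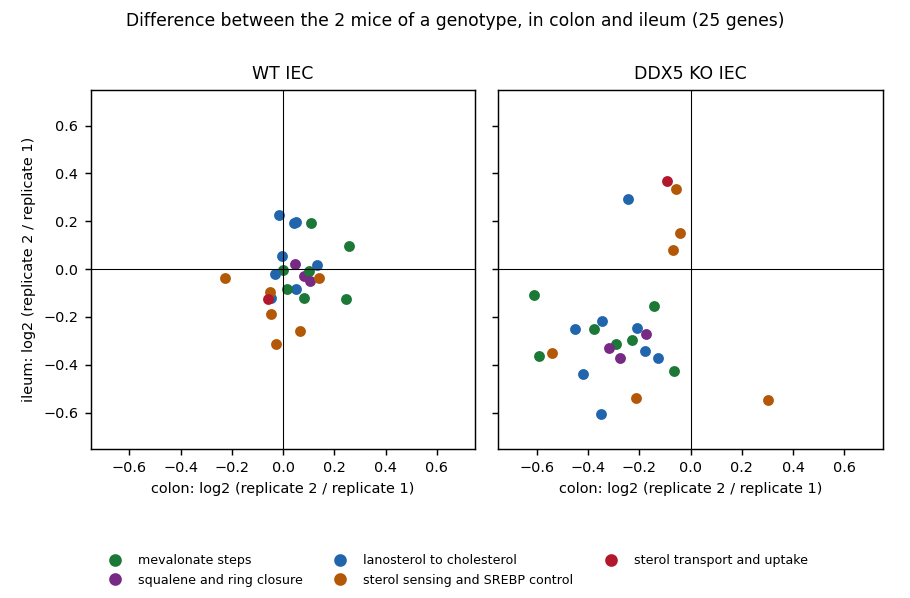
Log2 ratio of replicate 2 to replicate 1 in the colon (horizontal) and the ileum (vertical), for 25 genes coloured by role, in WT IEC (left) and KO (right). In KO 17 of the 18 enzymes lie at values below 0 on both axes, and in WT 3 do.

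Other values also separated the KO mice. Of 12 crypt and cycling markers, 10 were higher in KO replicate 2 in the colon (median log2 ratio 0.48) and 10 in the ileum (0.21). All 8 ileal enterocyte markers were lower in ileum KO replicate 2 (median −0.93), and 5 of 7 colonocyte markers were lower in colon KO replicate 2 (median −0.48), although their summed level was higher there, 24040 CPM against 13287. Of 7 tested stroma and endothelium markers, 6 were lower in colon KO replicate 2 (median −0.86). The epithelial markers had medians of −0.05 (colon) and −0.41 (ileum), and all 6 leukocyte markers tested in the colon were higher in KO replicate 2 (median 1.37). Of the 4 pathway lists, the genes of export, esterification and lysosomal transport also had negative medians, −0.12 (11 of 15 lower) and −0.33 (12 of 15 lower). The fatty acid arm of SREBP had −0.04 and 0.10, the other sterol and isoprenoid branches 0.07 and 0.04, and the genes of SREBP cleavage −0.02 and 0.07. Ileum KO replicate 2 is also the library in which the repeat-like genes took 19.5% of counts; with these left out of the scaling, the enzymes' median was −0.30 in the ileum. The part of these differences in the enzyme values was not tested.

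The difference of the genotype effect between segments was tested directly as an interaction over all 8 libraries. By edgeR, 0 of the 26 genes reached an adjusted p under 0.05, where 0.0124% of 16178 genes did, and 1 had an unadjusted p under 0.05, against 4.67% of all genes. DESeq2 also called 0. The smallest p was that of Npc1l1 (−2.25, SE 0.83, adjusted p = 1.00), which rests on its 30 colon counts. Mvk was next (−0.36, SE 0.21, adjusted p = 1.00, 95% interval −0.84 to 0.12). For Pmvk the difference was 0.21 with a 95% interval of −0.20 to 0.62, and for Hmgcs1 0.07 with −0.42 to 0.55.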

How the data were processed

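RNAseq libraries of ribosome-depleted RNA from IECs of 2 WT IEC and 2 DDX5 ΔIEC mice were analysed in colon and ileum. The authors aligned paired reads to mm10 with STAR 2.6.1a, and deposited raw counts of uniquely mapped reads over GENCODE exons made with featureCounts, together with gene length, normalized values and their own DESeq2 1.18.1 comparison, of which only the counts and lengths were used. Whether reads were counted by strand is not given in the sources used here.

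Python 3.11.15, R 4.3.3, edgeR 4.0.16 and DESeq2 1.42.0 were used. Genes were kept by filterByExpr with a minimum count of 10, scaled by TMM and compared by the quasi-likelihood test of edgeR, with Benjamini-Hochberg correction over all genes tested. Genotypes were compared within each tissue with the replicate number as block, after the harvest covariate in the study's methods. Ileum and colon, and the interaction, were compared over all 8 libraries in 4 groups without a block, with tables joined by gene ID. That the colon and ileum library of a number come from the same mouse follows from the mouse numbers in the study's supplementary table. Deviations of same-mouse libraries correlated at r = 0.14 in each genotype over 16178 genes; those of same-numbered WT and KO libraries at 0.006 in the colon and 0.24 in the ileum. CPM per kb used the length column of the tables. Positions and shared 50-base words came from GENCODE vM21 on GRCm38, a later release than the authors used. Total counts set the precision of low genes such as Npc1l1, and exact 95% intervals cover counting error only.

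The alternatives were no block or the mouse as replicate block, DESeq2, RLE scaling, no filter, a mean of at least 10 counts, other sets of libraries, exclusion of 3 repeat-like genes (Gm10800, Gm10801 and Gm21738), stricter criteria, and leaving out each library. The fits that left out a library held all remaining libraries of both tissues in 4 groups, without a block, also for the genotype comparisons. Other scalings of the ratio between the KO mice were added after seeing the data. The fits were tested on simulated counts. Full statistics were given for members called between genotypes, for the 3 with the largest change in each tissue comparison and for the 2 with the smallest interaction p. The members, lists and rules were chosen with earlier results of these data known. A result on 1 gene of the lists is not reported here.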

Additional observations from a re-analysis of the deposited data

How the results depend on the processing

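Between genotypes, 1 member was called in each tissue without the block, with DESeq2, with RLE, with either other filter and without the repeat-like genes. At an adjusted p under 0.05 or a log2 fold change of at least 1, 0 members were called in the colon and 0 in the ileum. With all 8 libraries in the fit, 2 were called in the colon, the second being Npc1l1 (2.30, adjusted p = 0.383). Leaving out 1 library gave 0 to 3 calls in the colon and 1 to 3 in the ileum. Without colon WT replicate 2 no member was called, without colon WT replicate 1 Npc1l1 joined as higher, and without colon KO replicate 1 Npc1l1 and Mvd (−0.51) joined. Without ileum WT replicate 1 Nr1h3 joined (0.60). Without ileum KO replicate 1, 3 were called lower (Mvk, Acat2 and Lss) and the median of all members was −0.27. Without ileum KO replicate 2, 0 were lower, Nr1h3 was called higher (0.72) and the median was 0.01. In the colon the median was −0.19 without KO replicate 1 and 0.06 without KO replicate 2. Between segments, leaving out 1 WT library gave 10 to 15 calls in WT, where all libraries gave 19, and leaving out 1 KO library gave 15 to 19 in KO, against 17. Fdps lost its WT call with DESeq2, RLE, no filter and without the repeat-like genes (adjusted p from 0.0505 to 0.140). With DESeq2 the median of all genes between segments was 0.24 in WT and 0.15 in KO, over a larger set of genes, against a member median of 0.71 in WT. With a log2 fold change of at least 1, 6 members were called in WT and 4 in KO, all higher in the ileum, where 9.09% and 10% of all genes were called higher by this criterion. With only the 4 KO libraries fitted, Scap, Srebf2 and Msmo1 lost their KO calls (adjusted p = 0.0699, 0.0615 and 0.0585). No called member changed sign under these alternatives. In the interaction, 1 member, Npc1l1, was called with no filter (−2.28, adjusted p = 0.0252) and 0 otherwise; its adjusted p was from 0.0252 to 1.00. Leaving out a library leaves 1 mouse in a group, and the share of all genes called in those fits is not given. The counts of calls in those fits thus cannot show whether a change concerns these members or all genes. The cause of the changes under these alternatives was not tested.

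The study describes 2 pairs of cohoused KO and WT littermates, the labels give WT and KO libraries the same replicate numbers, and neither says that the numbers mark the pairs; the correlations do not settle it. Without the replicate block, all protein-coding calls went from 834 to 824 in the colon and from 797 to 611 in the ileum, and calls at an adjusted p under 0.05 from 0 to 5 and from 98 to 1. The block changed no call of a member between genotypes. By total counts alone, the enzymes' median for ileum KO replicate 2 over replicate 1 was −0.47, and it was −0.30 with the 2 other scalings. A gene with few counts, such as Npc1l1 in the colon, cannot show a difference of moderate size at this depth.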
